A study of Mus musculus with 18 samples.

Results

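The long reads of this series were used by its authors to extend the Gencode mouse annotation, and 1 class of the added transcripts is described here. TALON, the program that built the extended annotation, gives a transcript the class NIC when the splice sites it uses are already in the annotation catalogue but their combination is not. The members are all transcripts of the deposited annotation that TALON marked as not annotated and flagged as NIC. They numbered 2180 of 11013 added transcripts and of 153565 transcripts in all, and they lay in 1487 genes. The other added transcripts were 8444 incomplete splice matches (ISM, a stretch of a known transcript), 329 that use a new splice site (NNC) and 60 of other kinds, and 23570 transcripts were marked as known, meaning annotated and seen in the reads.

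The cells were lineage-negative, cKit (Cd117)-positive (LK) bone marrow cells of female C57BL/6 mice (C57BL/6J in the study's methods), a fraction that holds blood stem and progenitor cells. Mice 1, 3 and 5 were 8 weeks old (young) and mice 2, 4 and 6 were 72 weeks old (aged), with 3 mice per age and no treatment or altered allele given for either. Cell-barcoded cDNA of each mouse was sequenced as 3′ short reads (Illumina) and as long reads in a Sequel run and a Sequel II run. The NIC flag, exon positions and strands come from the annotation, while levels come from gene counts, so every level below is that of the host gene and not that of the NIC transcript.

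The short-read table held 8436 cells and 3628043 to 17585424 unique molecular identifiers (UMIs) per mouse, and 42 cell barcodes occurred in more than 1 library. Reads on genes numbered 274522 to 358453 per Sequel run and 962174 to 1833762 per Sequel II run. The sort marker Kit (33.8 to 61.7 CPM, the counts scaled to a library total of 1000000) and the pan-leukocyte gene Ptprc (26.1 to 47.3) were present in every mouse, whereas Cd3e, Ly6g and Cd8a had no row in the table. Transcripts of plasma cells differed between mice, with Jchain at 442, 2.48 and 9.40 CPM in young mice 1, 3 and 5 and at 2687, 516 and 52.4 CPM in aged mice 2, 4 and 6. Mice 1 and 2 stood apart in the neutrophil elastase gene Elane (4613 and 4888 CPM, against 1385 to 2950 in the other 4). Over 5922 genes, the 4 Sequel runs with a mouse number were each closest to the short-read library of their own mouse, whereas 2 of 6 Sequel II runs were. The remaining Sequel II runs, aged 4 and 6 and young 3 and 5, were each closest to a library of the other age. Sequel runs were therefore used for levels, and the total of all 12 runs for depth.

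Splicing joins a donor site at the end of 1 exon to an acceptor site at the start of another. A cell can vary the outcome by skipping an exon, by choosing another donor or acceptor, by keeping an intron, or by starting or ending the RNA elsewhere. A change of coding length by a multiple of 3 keeps the reading frame, whereas other lengths shift it, and a stop codon well before the last junction is the usual trigger of nonsense-mediated decay. SR proteins, hnRNP proteins and the core spliceosome choose the sites, and many of their own genes are regulated by splicing.

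Junctions that no annotated transcript of the host gene contains carry the NIC definition most directly. A set of 6, in genes with roles in blood cells and the proteasome, is printed to show which known exons were joined. All 6 come from transcripts whose exon numbers ran against the listed strand, a trait described below. Of the 63 transcripts with such a junction, 10 were numbered along it. Each run holds the last 15 bases of the donor exon in lower case and the first 15 bases of the acceptor exon in capitals, 5′ to 3′ on the gene's strand, spliced from exon sequences of Gencode M21 on GRCm38, and the interval is the intron.
Lmo2 (plus strand, chr2:103958084-103976004): cgattggagaggcagGGAACCCGTGGATGA
Tal1 (plus strand, chr4:115057872-115063129): tttcgcctatttctgGATGACGGAGCGGCC
Cd47 (plus strand, chr16:49898133-49910868): atatgaagtttgtcgAATAGGTGAAGGGAA
Prtn3 (plus strand, chr10:79874722-79880427): gagtccgtttccatgGCGCAGTCCAGGCCT
Cpa3 (minus strand, chr3:20215993-20222086): aaccaccaggacctaACAAGACTTCAGGCT
Psmd5 (minus strand, chr2:34866096-34870749): taaccagaacaatcgATTGGAAGAATTGTT

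The NIC label was checked against exon positions, and most members did not have the structure it names. The intron chain of 1151 of 2180 NIC transcripts (52.8%, 95% Wilson interval 50.7 to 54.9, which like all such intervals here covers counting only) was contained in a single annotated transcript of the host gene. Of these, 1055 had the whole chain of an annotated transcript, 914 the whole chain of a known one, and 134 had identical exons including both ends. New combinations of annotated sites, here called new-chain transcripts, numbered 463 (21.2%, 19.6 to 23.0) in 334 genes. Among them, 400 combined annotated introns in a new way and 63 held a junction absent from the host gene's annotation. The remaining 566 (26%, 24.2 to 27.8) used at least 1 splice site not annotated in the host gene. Of these, 301 had all such sites within 10 nt of an annotated one and 39 had all such sites at positions annotated on the opposite strand.

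Exon numbers ran against the listed strand in 1883 of the 2180 NIC transcripts (86.4%, 84.9 to 87.8) and along it in 297. All 1151 transcripts with an annotated chain were numbered against the strand, as were 373 of 463 new-chain transcripts and 359 of 566 with an unannotated site. The same held for 5913 of the ISM transcripts and 290 of the NNC transcripts, while 0 of 17809 known transcripts with several exons were numbered against their strand. How this numbering arose, and its part in the NIC label, was not tested. With numbering along the strand required, 90 of 297 NIC transcripts (30.3%) were new-chain and 0 had an annotated chain.

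**Figure D1:**
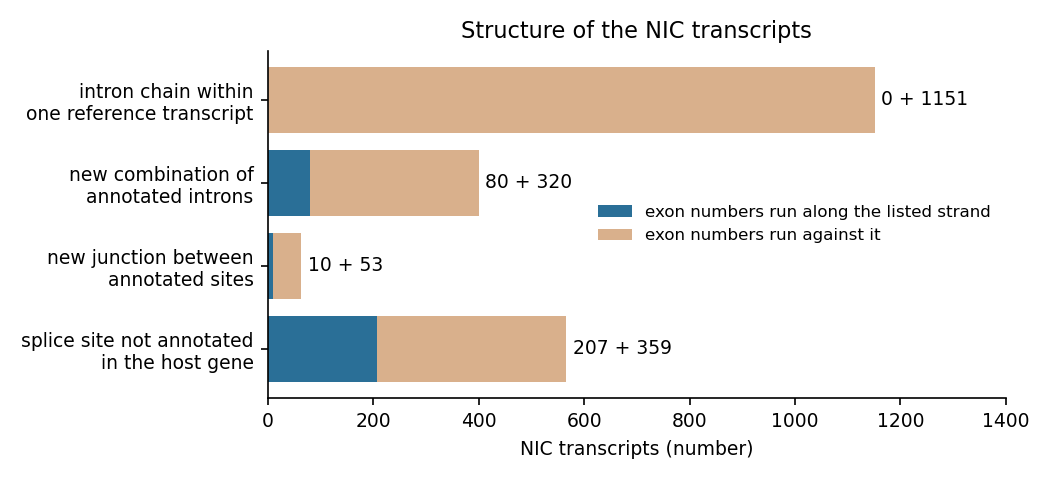
Number of NIC transcripts (x axis) by structure against the annotated transcripts of the host gene (y axis). Blue marks exon numbers running along the listed strand and tan marks numbers running against it, with both counts beside each bar; all 1151 members with an annotated intron chain are tan.

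NIC transcripts had a median of 10 exons (quartiles 7 to 14, range 2 to 39) and 2206.5 nt (1661.75 to 2922). ISM transcripts were shorter in both measures, with medians of 8 exons and 1989.5 nt, and known transcripts had medians of 4 exons and 1895 nt. A single exon was found in 5761 known and 316 ISM transcripts but in 0 NIC transcripts, whose definition needs splice sites, so exon numbers differ partly by definition. The new-chain transcripts had 10 exons and 2083 nt. Each NIC transcript was also set beside the annotated transcript of its gene that shared most of its chain, which was possible for 2169. Of these, 1215 (56.0%) were shorter than that closest transcript, with a median difference of -23 nt. The ends mostly lay at annotated ends, since 1842 began within 50 nt of an annotated start and 1513 ended within 50 nt of an annotated end. The most exons were found in Tbcd, a tubulin-folding cofactor, whose TALONT000919733 (chr11:121451949-121617164, plus strand) had 39 exons and the chain of Tbcd-201. The longest was TALONT000491436 of the unconventional myosin Myo1d (chr11:80482126-80780003, minus strand), with 5332 nt against 5354 nt in Myo1d-201. Since these extremes both had annotated chains, neither was a new splice form.

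Among host genes, 1094 had 1 NIC transcript, 251 had 2 and 142 had 3 or more. Protein-coding genes made up 1457 of the 1487 and held 2129 of the transcripts, 17 were long non-coding RNA genes and 7 were genes that TALON had added. The poly(C)-binding protein gene Pcbp2, which encodes an hnRNP protein that binds RNA, hosted 36, the most of all. Of these, 29 were new-chain and 7 had an annotated chain, set against 31 annotated transcripts of the gene. Its new chains differed from the closest annotated transcript by added first exons in 15 cases and by another acceptor in 16. The acceptor shifts were multiples of 3 throughout (exonic nt gained, negative where the exon was shortened), with 5 of -24 nt, 5 of 12 nt, 4 of -3 nt and 1 each of -12 and 3 nt. A further pair skipped the 93-nt exon at chr15:102485948-102486040 (361 codons became 330) and the 39-nt exon at chr15:102488776-102488814 (331 became 318). These 2 junctions are shown because both keep the frame within a gene that regulates RNA, with 15 bases on each side as above. Both transcripts were numbered against the strand.
Pcbp2 without the 93-nt exon: tttgcaggtggtcagGCCTATACCATTCAA
Pcbp2 without the 39-nt exon: acaccggattcagtgCAGGTTTGGATGCAT

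The next hosts had fewer new chains. Gm20388, a gene model with 1 annotated transcript, hosted 14 and Git2, an Arf GTPase-activating protein, hosted 10, and all of these used sites not annotated in the host. The major histocompatibility gene H2-K1 hosted 8 (1 new-chain), the DNA-binding protein gene Fubp1 hosted 7 and Hnrnpab hosted 7, the last pair with 0 new-chain transcripts. The 9 genes with 6 each were Cd47, Eef2, Eif4a2, Gm30211, H2-D1, Ptma, Serpina3g, Sf1 and Ywhaz. All 6 of the serine protease inhibitor gene Serpina3g were new-chain, as were 4 of 6 in the 14-3-3 gene Ywhaz and 3 of 6 each in Cd47 and the branch-point binding protein gene Sf1. In Serpina3g, 4 transcripts joined the same donor to 4 acceptors by junctions absent from the annotation, and 5 of the 6 kept an open reading frame of 248 codons. Because many members came from few genes, the structure was also counted with 1 transcript per host gene, where 17.3% were new-chain.

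The 463 new-chain transcripts differed from the closest annotated transcript by 1 event in 438 cases, by 2 in 23 and by 3 in 2. Another acceptor was the most frequent kind (103 events in 70 genes), followed by another donor (78 in 68 genes) and exon skipping (72 in 65 genes). Added last exons (53), added first exons (49) and another first exon (39) came next, with 37 retained introns, 21 introns removed from within an exon and 19 included exons. In 35 of the 103 acceptor events the shift was 3 nt, the distance between tandem acceptors of the NAGNAG kind. Within coding sequence, 53 of 61 acceptor shifts (86.9%, 76.2 to 93.2) were multiples of 3 nt. The same share was 17 of 30 for donors (56.7%, 39.2 to 72.6), 33 of 60 for skipped exons (55.0%, 42.5 to 66.9) and 13 of 33 for retained introns (39.4%, 24.7 to 56.3). Transcripts of 1 gene share exons, so these counts are not independent and no test was run on them.

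**Figure D2:**
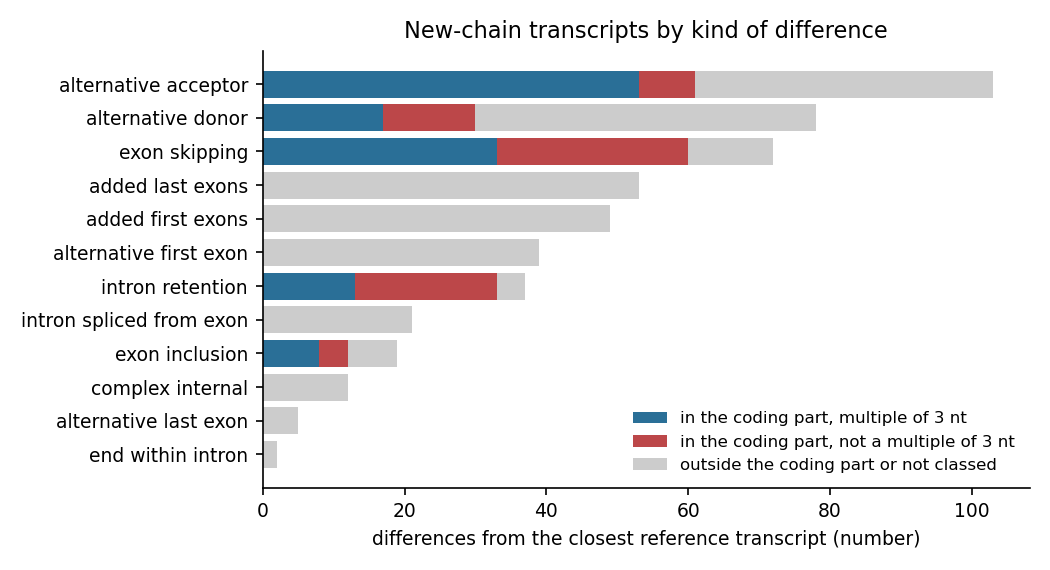
Differences between the 463 new-chain NIC transcripts and their closest annotated transcripts (x axis, number of events) by kind (y axis). Blue and red mark events inside the coding sequence that are and are not multiples of 3 nt, and grey the rest; 53 of 61 coding acceptor shifts are blue against 13 of 33 retained introns.

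The closest annotated transcript was coding for 388 new-chain transcripts, and its start codon was followed through the new chain to see what would be read. An open reading frame of the same length resulted in 129 (33.2%, 28.7 to 38.1), a shorter one ending near or after the last junction in 78 and a longer one in 34. A stop codon more than 50 nt before the last junction occurred in 60 (15.5%, 12.2 to 19.4), 43 reached the transcript's end with no stop and 33 lacked the start codon. Members with an annotated chain kept the length in 948 of 1089 (87.1%, 84.9 to 88.9). These are readings of exon sequence from the start codon of 1 annotated transcript, some members held further annotated starts, and no protein was measured.

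Transcription factors of blood cells were searched as a list of 36 genes, of which 35 had a long read, 11 hosted a NIC transcript and 4 a new-chain one. Over all 13461 protein-coding genes with a long read, 1449 hosted a NIC transcript and 333 a new-chain one. Lmo2, a bridging protein of the haematopoietic transcription complex, hosted TALONT000511959 (chr2:103957911-103981855, plus strand, 3 exons, 1370 nt). It joined a distal first exon to an internal exon across 17921 nt, the junction printed above, and held 0 of 3 annotated Lmo2 start codons. Its closest annotated transcript reads 228 codons. The short-read level of Lmo2 was 445, 403 and 395 CPM in young mice 1, 3 and 5 and 371, 396 and 486 CPM in aged mice 2, 4 and 6. The ages overlapped, with the lowest and the highest value both in aged mice.

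Tal1, the basic helix-loop-helix partner of Lmo2, hosted TALONT001023430 (chr4:115057531-115068850, plus strand), which replaced the first exon of Tal1-204 and kept all 329 codons. Its host level was 25.1, 27.3 and 28.9 CPM in young and 23.1, 31.2 and 33.4 CPM in aged mice, overlapping between ages. Runx1, a core transcription factor of stem cells, hosted TALONT000518195 (chr16:92603656-92826074, minus strand), which skipped the 192-nt coding exon at chr16:92644154-92644345. The frame was kept, and 465 codons of Runx1-201 became 401. The Ikaros gene Ikzf1, needed for lymphoid development, hosted TALONT000182056 with another first exon and 345 codons read to its end without a stop. Of the 4, the Ikzf1 transcript had exon numbers along the strand and the other 3 against it. Gata2, Ldb1 and Meis1, further factors of the network the study describes, hosted 0 NIC transcripts.

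The junction that skips the Runx1 exon is printed because it removes a whole exon in frame. The junctions of Itgb2 and Ifnar2 are printed because they shift the frame of Itgb2-201 and Ifnar2-201, with 15 bases on each side as above. The transcripts of all these junctions were numbered against the strand.
Runx1 (192 nt skipped): cccgagaaccccgaaATGCCAGGCAGATCC
Itgb2 (89 nt skipped): tcttcctgggatctgAACTTCACTGGACCA
Ifnar2 (124 nt skipped): cgtctgcttttgatgCAAAGACGAAAATCT

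Cytokine receptors relay growth signals, and 25 were listed, all with long reads. NIC transcripts lay in 5 of them and new-chain ones in 4. The interferon receptor gene Ifnar2 hosted TALONT000513070, whose skipped 124-nt exon left 37 of 513 codons from the Ifnar2-201 start, with the stop 599 nt before the last junction. It also held the start codon annotated in Ifnar2-204, from which 411 codons were read. The interleukin receptor genes Il3ra and Il1rl1 gained first exons upstream and kept 396 and 567 codons. Kit, the receptor used for the sort, hosted 0. Outcomes within this family thus ran from an intact frame to an early stop from the start of the closest transcript.

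Surface and adhesion genes numbered 20 with long reads, and 4 hosted a NIC transcript. Cd47, the "do not eat me" signal that macrophages read, hosted 6, of which 3 were new-chain. TALONT000491405 (numbered along the strand) skipped the 63-nt exon at chr16:49869018-49869080, and 324 codons of Cd47-201 became 303. TALONT000491419 held the printed junction, and skipped 77 nt in 2 exons of Cd47-210, a transcript with no annotated reading frame. From the Cd47-201 start it held 291 codons, and TALONT000491429 held 310. Cd47 is known for tail variants of differing length, and these 3 forms all kept the start. Itgb2, the beta chain of leukocyte integrins, hosted TALONT000661201, where skipping of 89 nt left 27 of 770 codons from the Itgb2-201 start and a stop 2077 nt before the last junction. From the start codon of another annotated Itgb2 transcript, which it also held, 692 codons were read. Ptprc hosted 0.

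Granule proteins of neutrophils and mast cells stood higher among the lists, with 8 of 17 genes with long reads hosting a NIC transcript (47.1%) and 6 hosting a new-chain one. Of these 6, Mpo, Elane, Prtn3, Srgn and Prss34 each had over 10000 long reads. In that depth class, 23.9% of all protein-coding genes hosted a new-chain transcript. In Mpo, the myeloperoxidase gene, 2 transcripts used an acceptor 23 nt upstream, which lengthened the exon. One of them, TALONT000525284, kept 718 codons, and the other, TALONT000525397, reached its end after 451 codons with no stop. Prtn3, the proteinase 3 gene, hosted TALONT000671107 (chr10:79874366-79883174), which began at another first exon and lacked the start codon of Prtn3-201. Cpa3, the mast cell carboxypeptidase gene, hosted TALONT000818804 (chr3:20215620-20242181), which skipped the 85-nt exon at chr3:20219755-20219839 and held 334 codons, against 417 in Cpa3-201. In Elane and the mast cell protease gene Prss34 introns of 441 and 195 nt were retained. Srgn, which encodes the proteoglycan core of granules, gained a first exon and kept 152 codons.

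Splicing regulators hosted NIC transcripts in shares that differed by list and are not adjusted for depth. Of 25 hnRNP genes, all with long reads, 14 hosted a NIC transcript (56.0%), together holding 79, and 5 of 12 SR genes with reads did (41.7%). Among the new chains, Hnrnpa2b1 skipped a 120-nt exon in TALONT000754988 and 353 codons became 313. Hnrnpc skipped a 26-nt exon outside the coding sequence in TALONT001131436 and kept 306 codons. Srsf7 retained 180 nt in TALONT000846513 relative to an annotated nonsense-mediated decay transcript, with the stop 819 nt before the last junction, and Srsf5 shifted an acceptor by 3 nt in TALONT000971882 (269 codons became 270). In the core spliceosome, 10 of 37 genes hosted one and 3 a new-chain one. There, Sf3b2 lost 1 codon of 878 by a 3-nt acceptor shift and U2af2 retained 289 nt.

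Of all protein-coding genes with a long read, 1449 of 13461 (10.8%) hosted a NIC transcript. Oxidative phosphorylation had 6 of 89 (6.74%), the proteasome 5 of 49 (10.2%), cytosolic ribosomal proteins 10 of 85 (11.8%) and translation factors 15 of 69 (21.7%). These shares are not adjusted for depth, which is given below. Psmd5, a proteasome assembly chaperone, skipped the 145-nt exon at chr2:34866893-34867037, which left 78 of 504 codons and a stop 875 nt before the last junction. In the translation factor list, Eif4a2 skipped 140 nt relative to an annotated nonsense-mediated decay transcript not marked as known, and 362 codons became 96. From the held start of Eif4a2-223 it read 267 codons, against 312 there. Haem and erythroid genes had 5 hosts of 22 (22.7%). There, Car1, a carbonic anhydrase, skipped 198 nt (261 codons became 195) and Urod, an enzyme of haem synthesis, skipped 162 nt (367 became 313), both in frame. Genes of DNA methylation and chromatin had 5 of 20 (25%), among them the histone methyltransferase gene Ezh2, with a donor 27 nt upstream (746 codons became 737), and Dnmt3b, with 1 added codon (776 became 777).

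The share of genes hosting a NIC transcript was larger in each higher class of long reads per gene over the 12 runs. It was 16 of 2504 (0.639%) at 1 to 9 reads, 49 of 2857 (1.72%) from 10 to under 100, 805 of 5929 (13.6%) from 100 to under 1000, 535 of 2083 (25.7%) from 1000 to under 10000 and 44 of 88 (50%) at 10000 or more. New-chain hosts were 2.28% of genes from 100 to under 1000 reads, 8.31% from 1000 to under 10000 and 23.9% at 10000 or more. The lists differed in depth as well, against a median of 182 long reads per gene for all protein-coding genes. Medians were 2332 for hnRNP genes, 1977.5 for SR genes, 1857 for the core spliceosome and 1356 for granule genes. They were 1310 for ribosomal protein genes and 2040 for oxidative phosphorylation. As the study kept transcripts with a minimum of reads, a higher level in hosts was set by selection and was not tested.

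**Figure D3:**
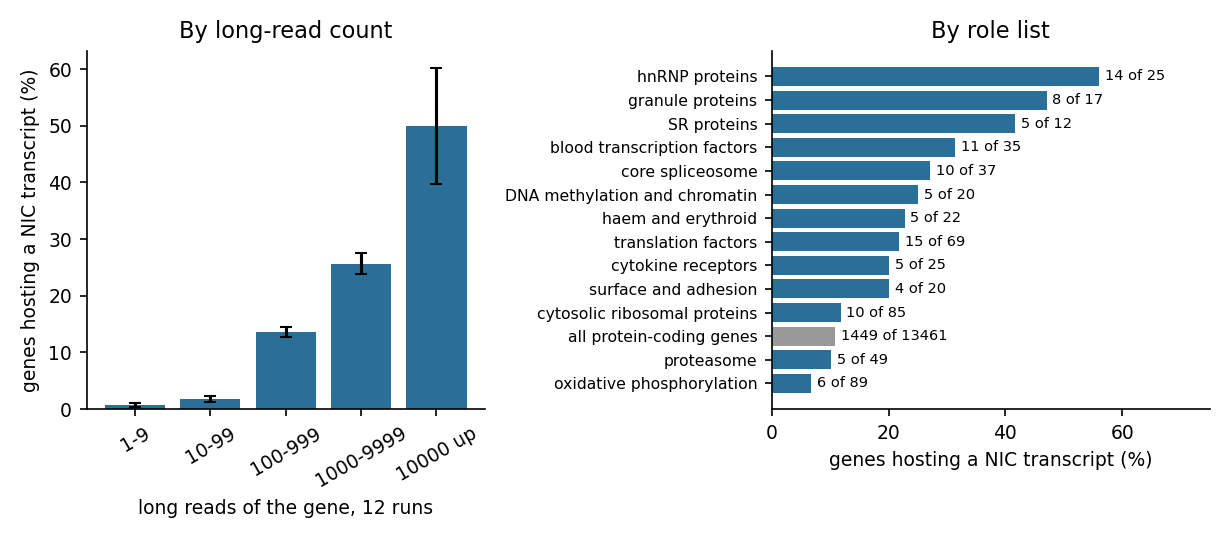
Share of protein-coding genes that host a NIC transcript (% of genes with a long read) by the gene's long reads summed over 12 runs (left, bars with 95% Wilson intervals) and by role list (right, counts beside bars, grey for all protein-coding genes). The share runs from 0.639% at 1 to 9 reads to 50% at 10000 or more, and the hnRNP list is at 56.0%.

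Unannotated splice sites, which a NIC transcript should lack, were listed next. They comprised 668 donors and 507 acceptors, and 258 and 254 of these lay at positions that are sites on the opposite strand. These came from few transcripts: of 566 with an unannotated site, 39 had all and 16 had some of them at such positions. Sites were also concentrated in few genes. Gm20388 had 198 and Agrp 45, in counts that include sites annotated in another gene. Within 10 nt of an annotated site of the same kind lay 196 donors and 78 acceptors. Of those donors, 148 lay exactly 4 nt downstream of the annotated donor, in 137 genes, and 206 transcripts used one. Sequence around the site could be read for 36 of them from exons of other transcripts. In 35 the used site began with GT, whereas the annotated one began with GT in 20 and with the rarer GC in 15. As the 36 were those covered by another annotated exon, these counts describe them and are not shares of the 148. The exception, E2f6, had AT at the annotated site and CC at the used one. Exon numbers ran along the strand in 78 of the 206 transcripts and against it in 128.

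A set of these donors is printed to show the overlapping sites, with 3 bases of exon and the 4 shifted bases in lower case and the first 4 bases from the used donor in capitals, from Gencode M21 exons.
Git2, a GC donor followed by GT: aaggcaaGTGT
Mcm2, a GC donor followed by GT: aaggcagGTGG
Hnrnpab, a GT donor followed by GT: acagtaaGTAG
Pabpc1, a GT donor followed by GT: agtgtaaGTAT
Eef1a1, a GT donor followed by GT: gaggtaaGTAG
Vim, a GT donor followed by GT: caggtttGTAG
Psmd14, a GT donor followed by GT: caggttaGTAT

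**Figure D4:**
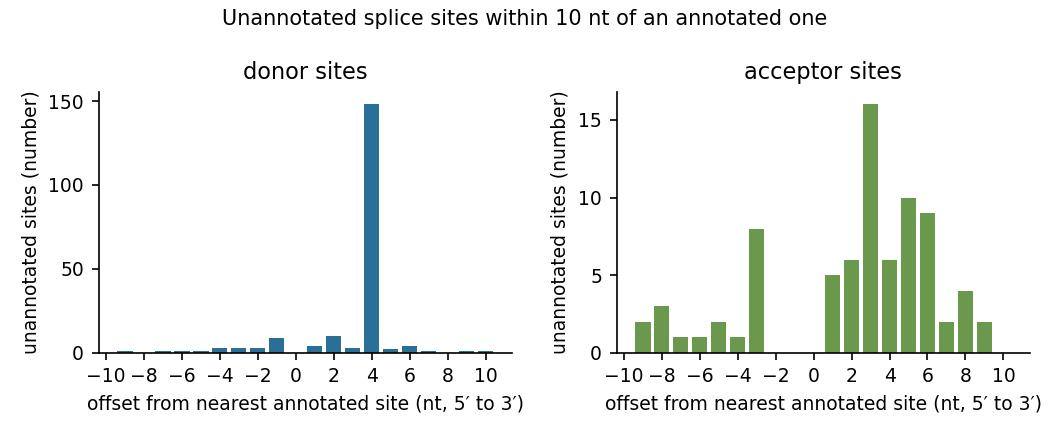
Number of unannotated donor (left) and acceptor (right) sites of NIC transcripts by distance in nt from the nearest annotated site of that kind, of any gene on the same strand, up to 10 nt, positive values downstream. The donor panel has a single tall bar of 148 sites at 4 nt, and the tallest acceptor bar is 16 sites at 3 nt.

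Host gene levels were compared with those of all genes on the CPM scale. Median short-read levels of the 1437 host genes matched by symbol were 27.9 to 32.8 CPM across the 6 mice, and those of the 326 new-chain hosts 45.9 to 54.8 CPM, against 4.26 to 5.51 CPM for all 17734 genes. In the Sequel runs the host medians were 53.7 to 69.2 CPM and the medians of all genes 13.3 to 18.2 CPM. Host genes held 28.6 to 34.2% of Sequel reads and 18% to 20.1% of UMIs. CPM are not divided by gene length, so these medians compare groups of genes and not genes with each other. Across the 1437 hosts, mean short-read and long-read levels had a Spearman correlation of 0.81. It is given as a description, since both assays read cDNA of the same mice.

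Hosts had a median of 741 long reads over all runs (quartiles 341.5 to 1654). The most reads were on Gm26917, a long non-coding RNA gene, with 457005, and its assays differed widely. Its Sequel level was 33671 to 90557 CPM, while its short-read level was 76.5, 72.9 and 64.0 CPM in young mice 1, 3 and 5 and 120, 79.5 and 90.7 CPM in aged mice 2, 4 and 6. Mpo followed with 122613 reads, then the ribosomal protein genes Rps9 (48404) and Rpl8 (42378) and the poly(A)-binding protein gene Pabpc1 (42741). At the other end, 31 hosts had under 10 reads in the gene counts and 12 had 0, among them Gm37240, Gm49776, Gm50230, the muscle methyltransferase gene Smyd1 and the glucuronosyltransferase gene Ugt1a10. Sf1, with 6 NIC transcripts, had 9 long reads in the same counts and 65.0 to 74.7 CPM in short reads. Gene counts and transcript models therefore gave unlike pictures of these genes, and the reason was not tested. Whether the counting used strand is not given in the sources used here, so reads of overlapping genes may be split or lost.

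The remaining question was whether host genes differed between 8 and 72 weeks. In sums over all cells of a mouse, fewer cells of a type and less RNA per cell cannot be told apart. With edgeR's quasi-likelihood test (two-sided, Benjamini-Hochberg over all genes), 0 of 1420 host genes tested in short reads passed an adjusted p of 0.05, the background being 0% of 12302 genes. At an unadjusted p under 0.05 there were 34 of the 1420 hosts (30 higher in aged), against 371 of the 12302 genes (3.02%). Without young mouse 1 or aged mouse 2 the split was 15 of 24 and 35 of 55 higher. Directions of all genes under that p were not counted in either assay. A lean of hosts therefore cannot be told apart from one of all genes. The median log2 difference was 0.0019 for hosts and 0.0031 for all genes. DESeq2 called 1 host, Sult1a1, and 12 genes in all. Of the 326 new-chain hosts, 0 were called and 2 had an unadjusted p under 0.05. In the Sequel reads, edgeR called 0 of 1115 hosts, the background being 0% of 5250 genes. There, 21 of the 1115 hosts (15 higher in aged) had an unadjusted p under 0.05, against 161 of the 5250 genes (3.07%). DESeq2 called 0 hosts. Without the young run that has no mouse number, 9 of 20 hosts under that p were higher in aged. With both runs of a mouse number summed, the split was 10 of 20. Only 2 of 6 Sequel II runs were closest to a short-read library of their own age, so these sums may mix ages.

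Of the 5 hosts with the smallest p in short reads, 4 are given by sample. The sulfotransferase gene Sult1a1 was at 0.914, 1.89 and 0.691 CPM in young mice 1, 3 and 5 and at 9.15, 23.8 and 6.06 CPM in aged mice 2, 4 and 6. All aged mice lay above all young ones, with a log2 difference of 3.49 ± 0.64 (SE, n = 3 per age, unadjusted p = 0.000638 and adjusted p = 0.654 by edgeR, adjusted p = 7.08e-06 by DESeq2). Its Sequel reads pointed the same way, with 1, 0 and 0 reads in the young runs and 13, 4 and 6 in the aged, too few to enter the long-read fit. The NIC transcript of Sult1a1, TALONT001106277 (chr7:126672865-126676375), had the chain of an annotated Sult1a1 transcript and its 298 codons, so it was no new splice form.

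Aldh1a1, an enzyme of retinoic acid synthesis, was at 7.23, 11.2 and 7.88 CPM in young and 12.8, 23.9 and 31.1 CPM in aged mice, without overlap (log2 difference 1.27 ± 0.34, unadjusted p = 0.00628). Etnk1, an ethanolamine kinase gene, was at 21.9, 17.5 and 26.1 CPM against 29.3, 27.5 and 35.8 CPM (0.44 ± 0.14, unadjusted p = 0.0139). Dtnbp1, which encodes a subunit of an organelle-sorting complex, was the 1 of the 4 with lower values in aged mice, at 118, 100.3 and 108 CPM in young and 88.7, 89.7 and 84.3 CPM in aged (-0.37 ± 0.11, unadjusted p = 0.0115). The edgeR adjusted p was 0.9999 for each of these 3. In the Sequel runs the ages overlapped for Aldh1a1 and Etnk1, while Dtnbp1 was at 120 to 190 CPM in young and 76.6 to 91.1 CPM in aged runs.

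**Figure D5:**
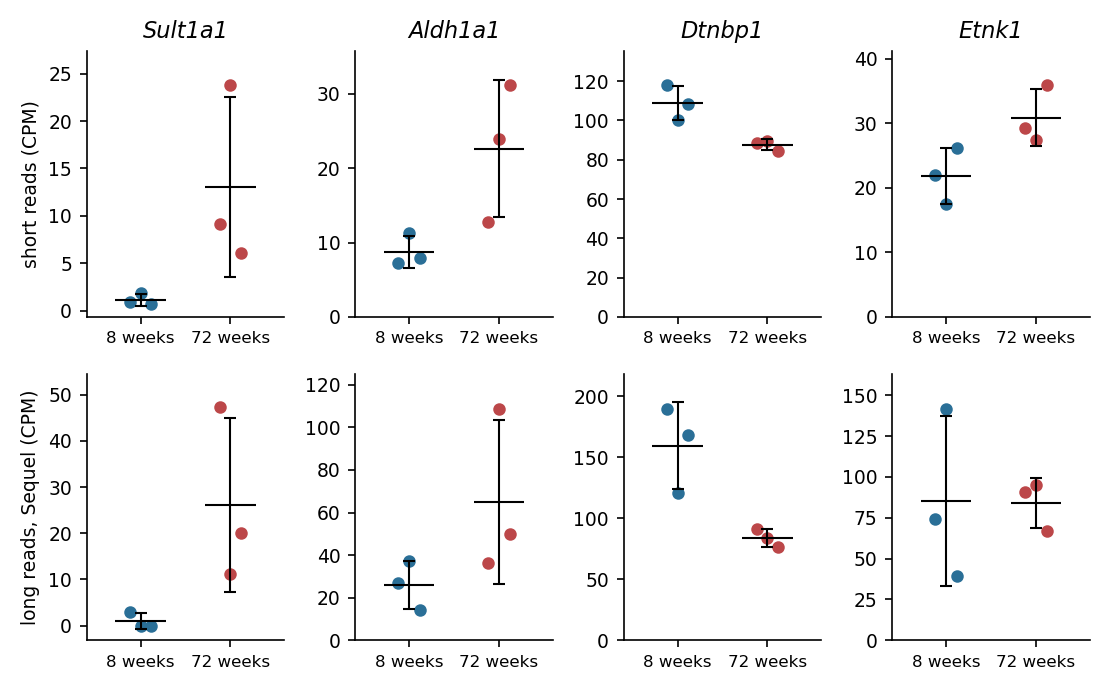
Levels (y axis, CPM; short reads above, Sequel long reads below) of 4 of the 5 host genes with the smallest p in short reads, in 3 young (8 weeks) and 3 aged (72 weeks) mice; points are mice or runs, lines the mean, bars 1 SD. In short reads the ages do not overlap for any of the 4, which were chosen for their p, and in long reads they overlap for Aldh1a1 and Etnk1.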

How the data were processed

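The members, gene lists and tests were chosen with earlier results of these data known. The authors mapped long reads to mm10 with minimap2, corrected them with TranscriptClean and annotated them with TALON against Gencode M24 on GRCm38.p6, and merged the filtered transcripts with that reference. The submitters' processing notes name Cell Ranger 3.0.2, Seurat 3, HTSeq and minimap2. The tables used hold whole-number counts deposited by the authors, UMI counts per gene and cell from filtered cells and HTSeq read counts per gene and long-read run. Special rows of the HTSeq table that name no gene held 47 to 52% of reads and were left out.

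Each NIC transcript was compared with the transcripts of its host gene that TALON had not added. Reading frames used exon sequences of Gencode M21, whose exons were identical for all 11029 transcripts compared. Exact bases come from there, as no genome was used. UMIs were summed per mouse, and ages were compared with edgeR 4.0.16 (filterByExpr, TMM, quasi-likelihood test) in R 4.3.3, with DESeq2 1.42.0 as an alternative. Cells and doublets were taken as deposited. Each library came from 1 mouse. The Sequel columns of mice 1 and 2 carry no mouse number and were used by age only, except where a setting pairs them by elimination. In simulated data, 44% of 2-fold and 91% of 4-fold changes were called in short reads and 27% and 91% in Sequel reads, with 14 and 12 false calls beside them. Simulated counts were drawn independently per library. No difference shared by several mice, such as that of mice 1 and 2, was put in, so recovery in the real data may be lower.

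Genes were named by a rule: the hosts with the most NIC transcripts, the most exons, greatest length, most and fewest long reads, smallest p, up to 4 examples per list by long reads, and genes that the study names. Every list gene with a new-chain transcript could also be named, which was chosen after the values were seen, as were the printed donor sites. Results for a few of the genes that this rule gives are not reported here.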

Additional observations from a re-analysis of the deposited data

How the results depend on the processing

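Structure depended on the reference. Against known transcripts only, 11.7% of NIC transcripts were new-chain, 44.3% had an annotated chain and 44.1% used an unannotated site. With 1 transcript per host gene the shares were 17.3%, 62.1% and 20.6%. With exon numbers along the strand required, a setting chosen after seeing the data, they were 30.3%, 0% and 69.7%. Sites of all genes, or leaving out immunoglobulin and T cell receptor genes, moved the new-chain share to 21.5% and 21.3%. For age, the main fits called 0 hosts. DESeq2 called 1 in short reads (Sult1a1, log2 difference 3.44; 12 genes in all). In Sequel reads, testing without a filter on low counts called 3 hosts (Sult1a1, Gm30211 and Ighm; 32 genes in all) and a term for mice 1 and 2 called 1 (Ighm; 3 in all). That term called 0 hosts and 4 genes in short reads. Leaving out each mouse or run gave 0 to 0 hosts called in short and in Sequel reads, with 16 to 55 and 18 to 52 at an unadjusted p under 0.05. Over all genes, leaving out aged mouse 2 gave 1 call in short reads, and leaving out aged run 4 or 6 gave 1 and 2 in Sequel reads. Sult1a1 ranged from 2.63 to 4.04 (log2) when a mouse was left out. The median level of hosts in long reads was 63.3 CPM in Sequel runs, 72.8 CPM in Sequel II runs and 71.4 CPM in their sum. The direction of the 4 named hosts was kept under every short-read setting run, whereas in Sequel reads Etnk1 was at -0.040 (log2) against 0.44 in short reads. No paired analysis was possible because mice of different age share no number. The counts give no depth per transcript, so the reads behind each structure are unknown beyond the minimum of reads that the study's filter required.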

Other observations

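Gm30211, a long non-coding RNA gene that hosts 6 NIC transcripts, all with unannotated sites, varied widely between runs. Its Sequel level was 1774, 29.6 and 179 CPM in the young runs and 17548, 965 and 86.5 CPM in the aged runs. The ages overlapped, and Jchain, Igkc and Ighm varied widely between mice in short reads as well (Igkc from 7.10 to 34588 CPM). A part of plasma cells in the Gm30211 level was not tested.

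The major histocompatibility gene H2-D1, host of 6 NIC transcripts of which 5 used unannotated sites, was at 862, 475 and 850 CPM in young mice 1, 3 and 5 and at 1100, 945 and 979 CPM in aged mice 2, 4 and 6. The ages did not overlap in short reads or in Sequel runs (1251 to 1681 CPM in young, 1730 to 2689 CPM in aged). How reads were divided between H2-D1 and its close relative H2-K1 is uncertain. H2-D1 was singled out after its values were seen and was not called in either fit.

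The transcription factor gene Xbp1, which acts in the unfolded protein response, hosted a NIC transcript (TALONT000165173, chr11:5520950-5525893) that kept 771 nt between annotated exons of Xbp1-201. Its reading frame ended after 182 of 267 codons, with the stop 806 nt before the last junction.

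Of the 1883 NIC transcripts numbered against the listed strand, 0 carried the TALON gene number of the listed host, 1713 carried another and 170 had none to compare. Of the 297 numbered along it, 194 carried the host's number, 3 another and 100 had none.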
